A study of Mus musculus with 9 samples.

Results

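Fc gamma receptors bind the constant part of IgG and hand the signal to an ITAM, a pair of tyrosine motifs in the cytoplasmic tail of a partner chain. The genes described here are 7 members of that system, Fcgr1 (NCBI Gene 14129), Fcgr3 (14131), Fcgr4 (246256), Fcgr2b (14130), Fcer1g (14127), Syk (20963) and Fcgrt (14132), found by symbol among 22064 genes listed, of which 18325 had values. All 7 had values in every library and passed the filter on low counts, which left 14108 genes for testing. RNA came from 9 bulk libraries of sorted lung neutrophils, 3 in each of 3 groups, all from female BALB/c mice (6 to 8 weeks old when bought). In mice whose mammary fat pad had been injected with 4T1-LM3 cells, CD45+ neutrophils were sorted as Ly6g-high or Ly6g-low from lungs at the macrometastatic stage. The 4T1-LM3 line was selected from 4T1 mouse mammary tumor cells, by repeated passage in mice, for spread to the lung. The NL group was CD45+ Ly6g-high neutrophils from normal lung of mice without tumor. Stage, tumor and cell sort are given here as the study describes them, and whether a library was made from 1 mouse or from pooled mice is not stated, so p-values measure only the spread between these samples.

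Estimated counts summed to 17004235 to 17841807 per library in the Ly6g-high group, 15267177 to 16553629 in the Ly6g-low group and 16570344 to 17171045 in the NL group. CPM are these counts scaled to a common library size with TMM factors, and FPKM are fragment numbers scaled for library total and transcript length, without TMM factors. The TMM factors differed between groups, at 0.945 to 0.950 for Ly6g-high, 0.803 to 0.807 for Ly6g-low and 1.30 to 1.32 in NL libraries. Relative to the count total, TMM moved log2 fold changes up by a median of 0.23 for Ly6g-low over Ly6g-high, 0.46 for Ly6g-high over NL and 0.69 for Ly6g-low over NL. For the 7 genes, a direction that is lost without this scaling is named beside the gene. By correlation, each of the 9 libraries was closest to another one of its group.

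The neutrophil label was checked against marker genes. S100a9, the most abundant of 10 neutrophil markers, of which edgeR called 3 higher and 3 lower between the Ly6g-low and Ly6g-high fractions, stood at 31667 ± 881 CPM (SD, n = 3) in Ly6g-high, 30616 ± 373 CPM in Ly6g-low and 7563 ± 68.7 CPM in NL libraries. Ly6g itself was at 374 ± 10.8, 394 ± 9.32 and 119 ± 1.40 CPM, and its log2 fold change between the sorted fractions of macrometastatic lung was 0.08 (SE 0.0334, edgeR adjusted p = 0.0577), not called. On FPKM, without TMM scaling, Ly6g had the opposite order, at 409 ± 11.4 in Ly6g-high and 366 ± 7.92 in Ly6g-low libraries. The NL libraries, labelled Ly6g-high, had the lowest Ly6g of the 3 groups and the highest levels of endothelial, epithelial and fibroblast markers.

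In neutrophils and macrophages, antibody bound by Fc gamma receptors triggers phagocytosis, degranulation and the oxidative burst. Fcgr1, Fcgr3 and Fcgr4 encode activating receptors, which depend on the ITAM chain encoded by Fcer1g for signalling. Src family kinases phosphorylate the ITAM tyrosines, and the kinase Syk then docks on them through its SH2 domains. Fcgr2b encodes the inhibitory receptor, whose ITIM recruits the lipid phosphatase Inpp5d and opposes that signal. Fcgrt encodes the neonatal Fc receptor, which with B2m rescues IgG from degradation in endosomes and does not signal through an ITAM.

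Fcgr2b, Fcgr4, Fcgr3 and Fcer1g lie together on mouse chromosome 1 (RefSeq, GRCm38.p6), within 274 kb. Fcgr2b is at chr1:170960558-170976071, Fcgr4 at chr1:171018926-171029761, Fcgr3 at chr1:171051169-171065915 and Fcer1g at chr1:171229572-171234349. The gaps between neighbours are 42.9, 21.4 and 164 kb. Fcgr1 is at chr3:96282909-96293969, Fcgrt at chr7:45092993-45103822 and Syk at chr13:52582610-52648792. Of the 50-base stretches in the protein-coding Fcgr3 transcripts (GENCODE vM21), 10.2% occur also in Fcgr2b. Of those of Fcgr2b, 6.72% occur in some other gene, with 4.48% in Fcgr3. How reads from such stretches were assigned is not stated. For Fcgr1, Fcgr4, Fcer1g, Syk and Fcgrt the share found in any other gene was 0%.

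The stretches that give the system its name are short. In Fcer1g, the ITAM is coded by 45 bases on the minus strand of chr1:171229889-171230072 (GRCm38), split by an intron between exons 4 and 5, and in Fcgr2b the ITIM is coded by 18 bases on the minus strand of chr1:170961071-170961088, in exon 8. Both are coding sequence, shown 5′ to 3′ with the tyrosine codons in capitals; each was the only match to its motif in the coding sequence searched.
Fcer1g ITAM: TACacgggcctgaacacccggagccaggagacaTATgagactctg
Fcgr2b ITIM: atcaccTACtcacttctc

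Per transcript length, the 7 genes kept the same order of level in all 9 libraries. Fcer1g was highest, at 585 ± 6.23 FPKM (SD, n = 3) in Ly6g-high, 623 ± 3.30 in Ly6g-low and 343 ± 17.9 in NL libraries. Fcgr3 came next, at 418 ± 8.65, 483 ± 12.8 and 205 ± 2.41 FPKM. Syk followed, at 173 ± 1.10, 223 ± 1.10 and 198 ± 4.93 FPKM. Then came Fcgr4 and Fcgr2b, the least separated pair in the Ly6g-high libraries, where Fcgr4 ran from 112.89 to 117.44 FPKM and Fcgr2b from 109.9 to 112.64 FPKM. Fcgrt and Fcgr1 closed the order, with Fcgrt at 15.6 to 16.7, 4.81 to 6.08 and 55.9 to 60.9 FPKM and Fcgr1 at 4.14 ± 0.392, 2.03 ± 0.205 and 15.3 ± 0.420 FPKM. In NL libraries Fcgr3 and Syk were neighbours, with the lowest Fcgr3 value at 203.62 and the highest Syk value at 201.74 FPKM, and so were Fcgr2b, down to 61.65 FPKM, and Fcgrt, up to 60.92 FPKM.

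**Figure D1:**
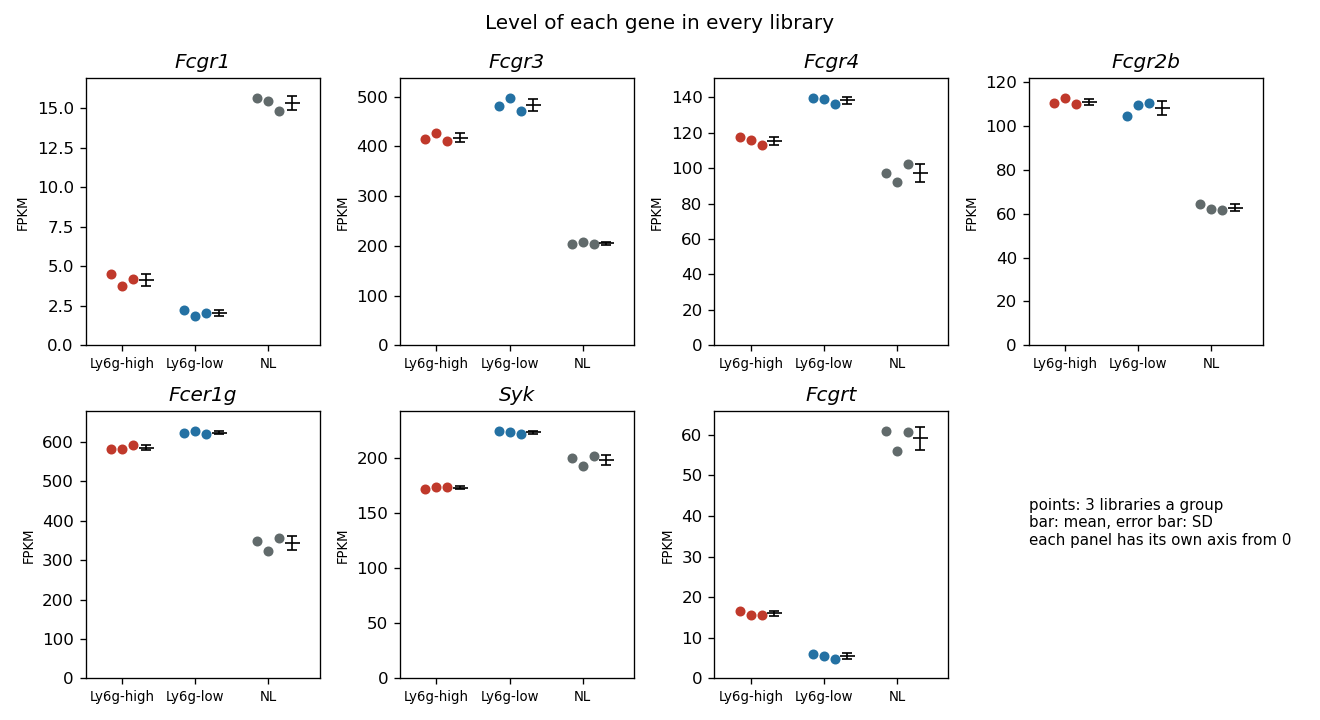
FPKM of each gene (vertical axes, each from 0) in the 3 libraries of each group (points), with the group mean and SD (bar and error bar). Fcgr1 and Fcgrt are highest in NL libraries, whereas Fcgr3, Fcgr4, Fcgr2b and Fcer1g are lowest there. Syk in NL libraries lies between the other groups on this scale, and Fcgr2b overlaps between the groups from macrometastatic lung.

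Fcgr1 encodes the high-affinity receptor that binds monomeric IgG. It stood at 12.1, 9.98 and 11.2 CPM in the Ly6g-high libraries, 7.07, 5.79 and 6.40 CPM in the Ly6g-low libraries and 30.6, 29.7 and 28.9 CPM in the NL libraries. Every NL library was above every library of macrometastatic lung, every Ly6g-low library was below every Ly6g-high library, and no groups overlapped. By edgeR, Fcgr1 was 1.73-fold lower in Ly6g-low than in Ly6g-high neutrophils (log2 fold change −0.79, SE 0.108, Benjamini-Hochberg adjusted p = 1.94e-06). Against NL it was 2.68-fold lower in Ly6g-high (−1.42, SE 0.0749, adjusted p = 7.95e-14) and 4.64-fold lower in Ly6g-low neutrophils (−2.21, SE 0.0890, adjusted p = 5.14e-16). In bulk samples, fewer cells of a type and less RNA per cell cannot be told apart. Monocytes and macrophages, which a gate on Ly6g is meant to leave out, also express Fcgr1, and the summed CPM of 12 of their markers was 1629 to 1704 in NL, 916 to 927 in Ly6g-high and 828 to 855 in Ly6g-low libraries. That of 12 alveolar macrophage markers was 1662 in NL, 1561 in Ly6g-high and 319.5 in Ly6g-low libraries on average, and without Chil3, which had more CPM in Ly6g-high than in NL libraries, the other 11 summed to 689.9 to 706 in NL, 282 to 295 in Ly6g-high and 41.5 to 42.6 in Ly6g-low libraries. Both sums had the order of groups of Fcgr1, but the 12 monocyte and macrophage markers did not move together between the fractions of macrometastatic lung. Mrc1 was at 119 CPM in Ly6g-high and 28.6 CPM in Ly6g-low libraries, whereas Csf1r was at 217 and 299 CPM. Of the 12, 3 were called lower and 0 higher in Ly6g-low than in Ly6g-high neutrophils. The part of such cells in the Fcgr1 result was not tested.

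Fcgr3 encodes the most abundant activating receptor of this set, of low affinity for IgG, and Fcgr4 an activating receptor of intermediate affinity. Fcgr3 was at 573, 586 and 562 CPM in Ly6g-high, 777, 806 and 763 CPM in Ly6g-low and 205, 205 and 203 CPM in NL libraries. Fcgr4 was at 149, 147 and 143 CPM in Ly6g-high, 208, 208 and 203 CPM in Ly6g-low and 90.0, 83.8 and 94.4 CPM in NL libraries. For both genes the Ly6g-low libraries were highest and the NL libraries lowest, without overlap. Fcgr3 was 2.81-fold higher in Ly6g-high than in NL neutrophils (edgeR log2 fold change 1.49, SE 0.0325, adjusted p = 1.55e-20) and 3.83-fold higher in Ly6g-low than in NL neutrophils (1.94, SE 0.0328, adjusted p = 2.24e-22). Fcgr4 was 1.64-fold higher in Ly6g-high (0.71, SE 0.0420, adjusted p = 6.69e-13) and 2.31-fold higher in Ly6g-low than in NL neutrophils (1.21, SE 0.0419, adjusted p = 3.67e-17). The Fcgr4 rise over NL fell under the threshold of 0.58 in Ly6g-high neutrophils with upper-quartile scaling, at 0.52, and on log2(FPKM + 1) it did so in both, at 0.24 for Ly6g-high and 0.50 for Ly6g-low. Between Ly6g-low and Ly6g-high neutrophils, the log2 fold change was 0.45 (SE 0.0313, adjusted p = 5.78e-11) for Fcgr3 and 0.50 (SE 0.0411, adjusted p = 9.26e-10) for Fcgr4, neither past the threshold on size. Under other ways of processing the lowest values there were 0.21 for Fcgr3 and 0.26 for Fcgr4. The summed CPM of 10 neutrophil markers was also higher over NL, at 96303 in Ly6g-high and 80034 in Ly6g-low against 21560 in NL libraries on average. The part that cell content has in the changes of Fcgr3, Fcgr4, Fcgr2b, Fcer1g and Syk over NL was not tested.

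Fcgr2b, the inhibitory receptor, was at 161, 164 and 159 CPM in Ly6g-high, 179, 188 and 188 CPM in Ly6g-low and 68.6, 64.3 and 64.9 CPM in NL libraries. The NL libraries were low and clear of the rest, and the other groups were close together. Fcgr2b was 2.45-fold higher in Ly6g-high (edgeR log2 fold change 1.29, SE 0.0399, adjusted p = 5.47e-18) and 2.81-fold higher in Ly6g-low (1.49, SE 0.0402, adjusted p = 4.31e-19) than in NL neutrophils. Between Ly6g-low and Ly6g-high neutrophils the log2 fold change was 0.20 (SE 0.0381, adjusted p = 0.000157), under the threshold on size, and on log2(FPKM + 1) it turned to −0.04, so no direction is given for that comparison.

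Fcer1g, the ITAM chain, was at 375, 372 and 379 CPM in Ly6g-high, 469.9, 476 and 469 CPM in Ly6g-low and 164, 148 and 166 CPM in NL libraries. Its groups were in the order of Fcgr3 and Fcgr4, opposite to that of Fcgr1, with NL lowest and Ly6g-low highest, without overlap. It was 2.35-fold higher in Ly6g-high (edgeR log2 fold change 1.23, SE 0.0381, adjusted p = 5.66e-18) and 2.96-fold higher in Ly6g-low (1.56, SE 0.0383, adjusted p = 8.38e-20) than in NL neutrophils. Between Ly6g-low and Ly6g-high neutrophils the log2 fold change was 0.33 (SE 0.0369, adjusted p = 1.1e-07), not past the threshold. Under other ways of processing its lowest value there was 0.09, and its highest adjusted p (edgeR, DESeq2 or limma) was 0.06. Relative to the summed FPKM of the 3 activating receptors, Fcer1g was at a ratio of 1.06 to 1.12 for Ly6g-high, 0.983 to 1.02 for Ly6g-low and 1.02 to 1.11 in NL libraries. The ratio thus stayed near 1 while both parts of it changed, and it was lowest in Ly6g-low libraries.

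Syk, the kinase that reads the phosphorylated ITAM, was at 946, 949.8 and 950.4 CPM in Ly6g-high, 1441, 1439 and 1424 CPM in Ly6g-low and 798, 752 and 803 CPM in NL libraries. The Ly6g-low libraries were far above the rest, and the Ly6g-high libraries were a little above NL. Syk was 1.51-fold higher in Ly6g-low than in Ly6g-high neutrophils (edgeR log2 fold change 0.60, SE 0.0301, adjusted p = 2.28e-13), and of the 7 genes it alone rose past the threshold there, by a narrow margin: with no filter on low counts the value was 0.578, and on log2(FPKM + 1) it was 0.36. It was 1.83-fold higher in Ly6g-low than in NL neutrophils (0.87, SE 0.0302, adjusted p = 3.57e-17), against 0.17 on log2(FPKM + 1). For Ly6g-high over NL the log2 fold change was 0.27 (SE 0.0301, adjusted p = 2.46e-08), under the threshold, and it turned to −0.19 on log2(FPKM + 1).

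Fcgrt, the receptor that salvages IgG, was at 29.9, 28.0 and 27.8 CPM in Ly6g-high, 12.8, 11.7 and 10.1 CPM in Ly6g-low and 79.4, 71.5 and 78.7 CPM in NL libraries. As for Fcgr1, the NL libraries were highest and the Ly6g-low libraries lowest, with no overlap. Fcgrt had the largest changes of the 7 genes in the comparisons of Ly6g-low neutrophils. It was 2.48-fold lower in Ly6g-low than in Ly6g-high neutrophils (edgeR log2 fold change −1.31, SE 0.0856, adjusted p = 1.77e-11). It was 2.68-fold lower in Ly6g-high (−1.42, SE 0.0596, adjusted p = 1.32e-15) and 6.65-fold lower in Ly6g-low (−2.73, SE 0.0738, adjusted p = 4.26e-19) than in NL neutrophils. Endothelial and epithelial cells, which a sort on CD45 should remove, and macrophages also express Fcgrt. The summed CPM of 7 endothelial markers was 975 to 1047 in NL, 144 to 148 in Ly6g-high and 177 to 184 in Ly6g-low libraries, so it moved with Fcgrt over NL but not between the fractions of macrometastatic lung. The summed CPM of 12 alveolar macrophage markers, led by Chil3, which ran against most of the others between Ly6g-high and NL, was 1649 to 1671 in NL, 1540.2 to 1594 in Ly6g-high and 311 to 330.2 in Ly6g-low libraries, and over NL 8 of the 12 were called lower and 1 higher in Ly6g-high, and 10 lower in Ly6g-low neutrophils. The part of these cells in the Fcgrt result was not tested.

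**Figure D2:**
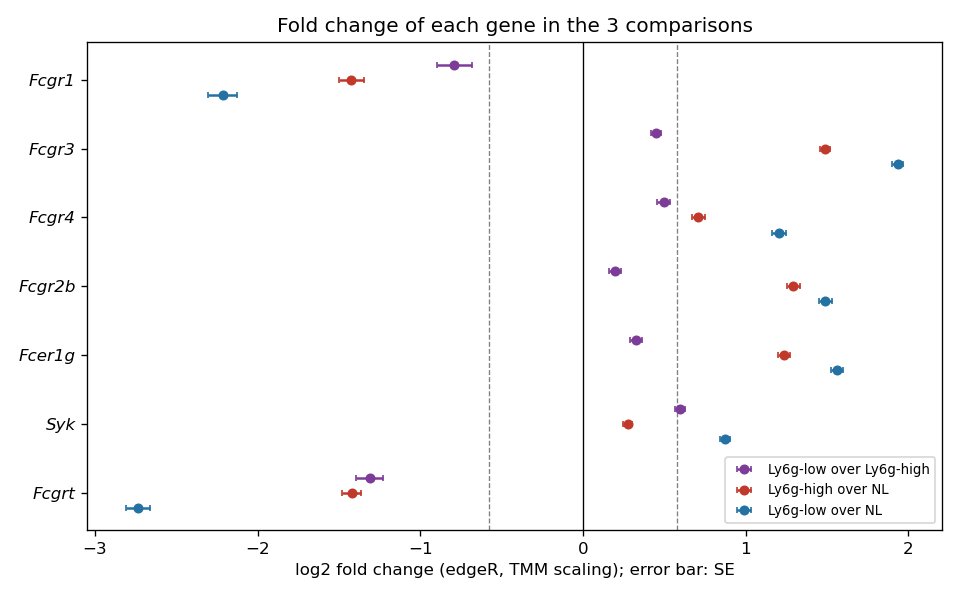
Log2 fold change (horizontal axis, edgeR with TMM scaling) of each gene in the 3 comparisons, with its SE as error bar; dashed lines mark the threshold of 0.58 in either direction. Fcgr1 and Fcgrt lie left of 0 in every comparison and the other genes right of it, but without TMM scaling Fcgr2b between the macrometastatic groups (−0.04) and Syk in Ly6g-high over NL (−0.19) fall left of 0.

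The comparison within macrometastatic lung asks how the Ly6g-low and Ly6g-high neutrophils differ. A gene was called where the edgeR adjusted p did not exceed 0.05 and the log2 fold change was beyond 0.58 in size. Of the 7 genes, 3 were called, beside 25.2% of all genes tested. Syk was called higher (9.29% of all genes) and Fcgr1 and Fcgrt lower (15.9% of all genes). All 7 had CPM that did not overlap between the groups, beside 62.1% of all genes tested, whereas in FPKM Fcgr2b overlapped. With edgeR the largest shifts were the lower levels of the neonatal and the high-affinity receptor, while the other Fc gamma receptors and the ITAM chain moved by less than the threshold.

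The comparison of Ly6g-high neutrophils of macrometastatic lung with those of normal lung keeps the sort gate by name and changes the lung. The libraries also differed in markers. Ly6g was at 374 CPM in Ly6g-high and 119 CPM in NL libraries, and 7 endothelial markers summed to 146 and 1019 CPM on average. In this comparison 6 of the 7 genes were called, beside 62.9% of all genes tested. Fcgr3, Fcgr2b, Fcer1g and Fcgr4 were called higher (26.3% of all genes) and Fcgr1 and Fcgrt lower (36.6% of all genes). The CPM of all 7 did not overlap between the groups, beside 85.2% of all genes tested. In Ly6g-low neutrophils over NL, which differ in both gate and lung and share the NL libraries with the comparison before, all 7 were called, beside 69.5% of all genes. The 5 called higher (28.7% of all genes) were Fcgr3, Fcer1g, Fcgr2b, Fcgr4 and Syk, and the 2 called lower (40.8% of all genes) were Fcgrt and Fcgr1. Again the CPM of all 7 did not overlap, beside 86.8% of all genes tested. Most genes tested were called over NL, so a call alone does little to set these genes apart there.

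Seen as a composition, the Fc gamma receptor transcripts shifted away from Fcgr1. Its share of the summed FPKM of Fcgr1, Fcgr2b, Fcgr3 and Fcgr4 was 4.10, 4.10 and 3.88% in NL libraries, 0.696, 0.566 and 0.658% in Ly6g-high libraries and 0.308, 0.245 and 0.282% in Ly6g-low libraries. Fcgr3 took the largest share throughout, at 53.9 ± 1.00% (SD, n = 3) in NL, 64.4 ± 0.307% in Ly6g-high and 66.0 ± 0.533% in Ly6g-low libraries. Fcgr4 went the other way, from 25.6 ± 1.19% in NL to 17.8 ± 0.279% in Ly6g-high and 18.9 ± 0.299% in Ly6g-low libraries. The inhibitory Fcgr2b held 16.5 ± 0.423%, 17.1 ± 0.120% and 14.8 ± 0.496%, lowest in Ly6g-low libraries. These shares do not depend on scaling between libraries, since each is taken within a library.

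Ratios of an activating receptor to Fcgr2b, also taken within a library, differed by receptor. The FPKM ratio of Fcgr3 to Fcgr2b was 3.27 ± 0.104 (SD, n = 3) in NL, 3.76 ± 0.0306 in Ly6g-high and 4.47 ± 0.177 in Ly6g-low libraries. The ratio of Fcgr4 to Fcgr2b had another order, at 1.55 ± 0.0969 in NL, 1.04 ± 0.0210 in Ly6g-high and 1.28 ± 0.0513 in Ly6g-low libraries. For Fcgr1 to Fcgr2b it was 0.244 ± 0.00492 in NL, 0.0374 ± 0.00394 in Ly6g-high and 0.0188 ± 0.00238 in Ly6g-low libraries. None of the 3 ratios overlapped between groups. An exact permutation test of 3 against 3 libraries cannot give a p below 0.1, so shares and ratios are given with no p.

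**Figure D3:**
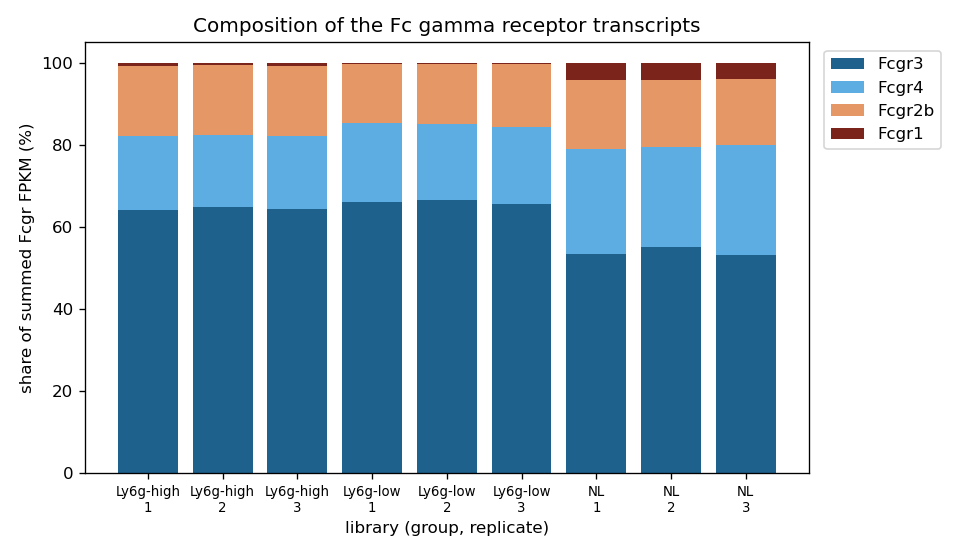
Share of each gene in the summed FPKM of Fcgr1, Fcgr2b, Fcgr3 and Fcgr4 (vertical axis, percent) in each of the 9 libraries (bars). Fcgr3 takes 53.2 to 55.1% in NL libraries and 64.2 to 66.5% in libraries of macrometastatic lung, and Fcgr1 is visible as a band only in NL libraries.

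Sequences upstream of the start sites were compared between members. Promoters of all 7 genes were in the RefSeq table (GRCm38.p6), with more than 1 start site for Fcgr3 and Syk, and the 250 bases before each start were searched on both strands for GAGGAA (the core of PU.1 sites), TTCNNNGAA (the GAS element bound by STAT proteins) and an interferon regulatory factor element (GAAA, any 2 bases, GAAA). Over the 32851 promoters in the table, 23.3% held the PU.1 core, 7.02% the GAS element and 2.98% the interferon regulatory element. The PU.1 core was found in Fcgr1, Fcgr3, Fcgr4 and at the downstream start of Syk, in each case within 55 bases of the start, the GAS element in Fcgr1 alone and the interferon regulatory element in Fcgr4 alone. None of the 3 was found for Fcgr2b, Fcer1g, Fcgrt or the upstream start of Syk, and neither the members that were lower over NL nor those that were higher all shared a match. A match is a description of letters, not of a bound site. The promoters with a match among the receptors are shown 5′ to 3′ on the gene's strand, with matches in capitals, for Fcgr1 (minus strand, chr3:96293970-96294219), which fell over NL, and for Fcgr3 (minus strand, chr1:171059404-171059653) and Fcgr4 (plus strand, chr1:171018676-171018925), which rose with TMM scaling.
Fcgr1: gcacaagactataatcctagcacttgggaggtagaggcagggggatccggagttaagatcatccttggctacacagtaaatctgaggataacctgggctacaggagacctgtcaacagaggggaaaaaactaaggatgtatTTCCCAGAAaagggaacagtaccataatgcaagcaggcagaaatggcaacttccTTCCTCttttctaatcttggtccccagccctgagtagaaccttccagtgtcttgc
Fcgr3: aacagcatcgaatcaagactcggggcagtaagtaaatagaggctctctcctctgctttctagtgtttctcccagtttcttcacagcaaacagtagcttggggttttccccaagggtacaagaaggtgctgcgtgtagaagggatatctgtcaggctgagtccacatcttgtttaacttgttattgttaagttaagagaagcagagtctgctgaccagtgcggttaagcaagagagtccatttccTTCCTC
Fcgr4: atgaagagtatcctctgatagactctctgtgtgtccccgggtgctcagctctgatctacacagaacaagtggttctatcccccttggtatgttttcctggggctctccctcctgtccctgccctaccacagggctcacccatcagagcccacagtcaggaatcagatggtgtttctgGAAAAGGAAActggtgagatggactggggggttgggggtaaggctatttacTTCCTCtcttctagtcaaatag

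Downstream of the receptors, a list of 69 genes of ITAM signalling was examined, all of them tested: Src family kinases, other ITAM chains with Zap70, adaptors and effectors of Syk, and phosphatases, ubiquitin ligases and inhibitory adaptors. Between Ly6g-low and Ly6g-high neutrophils 13 of the 69 were called by edgeR, 4 higher and 9 lower (18.8%, against 25.2% of all genes), and the median log2 fold change was 0.04, against −0.04 over all genes. The split is not stable to scaling: with DESeq2's size factors 7 were higher and 7 lower, and on log2(FPKM + 1) none was higher and 8 were lower (12.2% of all genes called), with a median of −0.16 against −0.05 over all genes. Against the genes with FPKM of 1 or more in 3 libraries, whose median was −0.19, the list lay above, so its place relative to all genes depended on the filter too. The 4 called higher were the Src family kinase Yes1 (log2 fold change 0.69, SE 0.120), the phosphoinositide 3-kinase adaptor Pik3ap1 (0.67, SE 0.0315), the SH2 adaptor Crk (0.67, SE 0.0393) and the adaptor Fyb (0.60, SE 0.0344), the last named after its value was seen. On log2(FPKM + 1) Yes1 was at 0.29, Pik3ap1 at 0.43 and Crk at 0.47, under the threshold. The largest falls among genes of at least 10 CPM were in the phosphatase-like Ubash3a (−0.93, SE 0.123), the B cell receptor chain Cd79a (−0.75, SE 0.118) and the kinase subunit Pik3cb (−0.73, SE 0.0515). Pik3cb was at 83.7 ± 3.48 CPM in Ly6g-high and 50.4 ± 2.71 CPM in Ly6g-low libraries, whereas Ubash3a and Cd79a were scarce, at 11.3 ± 0.601 and 12.4 ± 0.828 CPM in Ly6g-high libraries. B and plasma cells are among those that a gate on Ly6g is meant to leave out. Summed CPM of 6 of their markers, Cd79a among them, was 178 to 192 in Ly6g-high and 53.7 to 56.9 in Ly6g-low libraries. The part of these cells in the Cd79a result was not tested.

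Over NL most called genes of the list were higher with TMM scaling. In Ly6g-high neutrophils 53 of 69 were called (76.8%, against 62.9% of all genes), 39 higher and 14 lower, with a median log2 fold change of 0.74 against −0.09 over all genes. In Ly6g-low neutrophils 54 were called (78.3%, against 69.5%), 40 higher and 14 lower, with a median of 0.78 against −0.16. On log2(FPKM + 1), without TMM scaling, the splits were 20 higher and 16 lower for Ly6g-high and 17 higher and 20 lower for Ly6g-low neutrophils, so the balance of directions depended on the scaling. On that scale 36.0% and 41.5% of all genes were called, of which 21.8% and 14.8% were higher, with no filter on genes, and 51.4% and 58.9% among genes with FPKM of 1 or more in 3 libraries. The median of the list minus the median of all genes was 0.83 and 0.94 with TMM and 0.42 and 0.33 on log2(FPKM + 1), or 0.60 and 0.65 there among genes past that FPKM minimum, above 0 in each case. NL libraries had lower neutrophil marker sums and higher endothelial, epithelial and fibroblast ones, the last at 537 CPM against 53.4 in Ly6g-high and 55.1 in Ly6g-low libraries. The part of cell content in the place of the list relative to all genes was not tested.

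Among the Src family kinases, directions over NL differed between genes. Fgr and Lyn, which are expressed in neutrophils, were called higher with edgeR and are named after their values were seen. Fgr was at 770.3 ± 6.58 CPM in Ly6g-high, 956 ± 10.7 in Ly6g-low and 359 ± 13.1 in NL libraries, and Lyn at 841 ± 7.43, 1056 ± 19.6 and 428 ± 1.55 CPM. Their log2 fold changes over NL were 1.10 for Fgr and 0.97 for Lyn in Ly6g-high, and 1.41 and 1.30 in Ly6g-low neutrophils. On log2(FPKM + 1) Lyn fell under the threshold in Ly6g-high neutrophils, at 0.51. Src, Fyn, Yes1, Lck and Blk were called lower in Ly6g-high neutrophils, and all of these but Yes1 in Ly6g-low neutrophils. They were far below Fgr and Lyn in CPM, with Fyn the highest at 44.3 ± 0.558 CPM in NL libraries. Src was at 2.16 ± 0.352 CPM in Ly6g-high, 2.14 ± 0.325 CPM in Ly6g-low and 12.3 ± 0.678 CPM in NL libraries, with log2 fold changes over NL of −2.50 and −2.52. Fyn and Lck are also kinases of T cells, which a gate on Ly6g is meant to leave out. The summed CPM of 5 T cell markers was 61.6 to 64.3 in NL, 41.1 to 42.8 in Ly6g-high and 30.0 to 30.2 in Ly6g-low libraries. Cd3d, the most abundant, had another order, at 17.2 CPM in NL, 24.6 in Ly6g-high and 15.1 in Ly6g-low libraries. Over NL 4 of the 5 were called lower and 0 higher in each group. The part of T cells in the Fyn and Lck results was not tested.

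Among adaptors and effectors of Syk, 24 of 37 were called higher and 5 lower in Ly6g-high over NL (26.3% and 36.6% of all genes), and 25 higher and 6 lower in Ly6g-low over NL (28.7% and 40.8% of all genes). The GTPase Rac2, needed for the neutrophil oxidase, had log2 fold changes of 1.75 (SE 0.0408, edgeR adjusted p = 4.66e-20) and 1.88 (SE 0.0410, adjusted p = 1.24e-20), from 536 ± 38.3 CPM in NL to 1802 ± 37.9 CPM in Ly6g-high and 1967 ± 64.6 CPM in Ly6g-low libraries. Card9, the adaptor that links Syk to NF-kB, rose by 1.55 (SE 0.0452) in Ly6g-high and 1.75 (SE 0.0456) in Ly6g-low neutrophils. The exchange factor Vav2 was lower, at −2.09 (SE 0.0818) in Ly6g-high and −3.22 (SE 0.103) in Ly6g-low neutrophils, and so was the phospholipase Plcg1, at −2.15 (SE 0.0709) and −2.13 (SE 0.0751). Vav2 was at 32.9 ± 2.24 CPM and Plcg1 at 36.8 ± 1.42 CPM in NL libraries, and both were under 10 CPM in every other library. Of the phosphatases, ubiquitin ligases and inhibitory adaptors, 9 of 19 were called higher and 2 lower in Ly6g-high over NL. In Ly6g-low over NL 11 were called higher and 2 lower, beside the same shares of all genes (26.3% and 36.6%, then 28.7% and 40.8%). The counts for both roles are with TMM scaling, and without it the balance of directions in the whole list changed. In mean FPKM of Ly6g-low and NL libraries, Ptpn6 was at 187 and 116, Ubash3a at 1.78 and 1.69 and Ptpn11 at 12.9 and 20.9. With TMM scaling the inhibitory adaptor Dok2 rose by 2.16 (SE 0.0452) in Ly6g-high and 1.62 (SE 0.0471) in Ly6g-low neutrophils. Ubash3a rose by 1.67 (SE 0.121) and 0.73 (SE 0.143), and Dok3 by 1.62 (SE 0.0461) and 1.63 (SE 0.0466), in the same order.

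**Figure D4:**
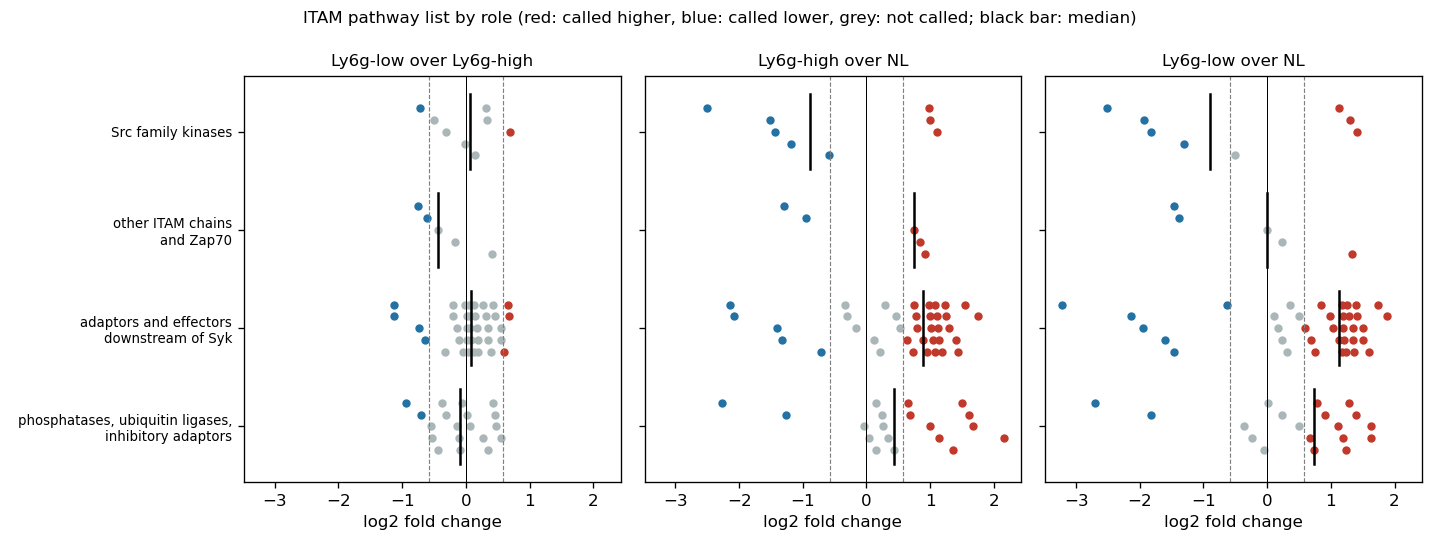
Log2 fold change (horizontal axes, edgeR with TMM scaling) of the 69 ITAM list genes by role in the 3 comparisons; red points are called higher, blue called lower and grey not called, and black bars are the medians of each role. Over NL most adaptors and effectors lie right of 0 and most Src family kinases left of it; without TMM scaling the whole list lies further left, with 17 higher and 20 lower in Ly6g-low over NL.

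Other Fc receptors were mostly scarce. Of 14 such genes, with the Fcgrt partner B2m among them, 13 were tested, Fcer1a not. B2m was at 723 ± 11.1 CPM in Ly6g-high, 932 ± 16.9 CPM in Ly6g-low and 902 ± 15.3 CPM in NL libraries and was not called in any comparison, at log2 fold changes of 0.37, −0.32 and 0.05 for Ly6g-low over Ly6g-high, Ly6g-high over NL and Ly6g-low over NL, the last of which turned to −0.14 with upper-quartile scaling. On log2(FPKM + 1) B2m was lower over NL, at −0.78 for Ly6g-high and −0.65 for Ly6g-low, so with Fcgrt lower in both comparisons over NL, its partner was lower in Ly6g-high neutrophils with either scaling, past the threshold only on FPKM, and had no stable direction in Ly6g-low neutrophils. The cytosolic antibody receptor Trim21 was not called with TMM scaling, at 0.14, −0.56 and −0.42. With upper-quartile scaling it was called lower over NL, at −0.75 and −0.61, and on log2(FPKM + 1) at −0.86 and −0.93, while its first value turned to −0.07. Fcrl5 was called higher in Ly6g-low than in Ly6g-high (0.82, SE 0.0968, edgeR adjusted p = 2.28e-07) and NL neutrophils (0.86, SE 0.0926), at 22.2 ± 0.198 CPM against 12.6 ± 0.307 and 12.2 ± 2.10 CPM. For Ly6g-high over NL its value was 0.04, not called, with −0.07 without NL replicate 3, −0.15 with upper-quartile scaling and −0.37 on log2(FPKM + 1). Both Fcrl5 calls fell under the threshold on log2(FPKM + 1), at 0.53 and 0.16, and so did both Fcrl1 calls over NL, at 0.30 and 0.28. With edgeR Fcrl1 was called higher over NL in Ly6g-high (0.82, SE 0.0904) and in Ly6g-low neutrophils (1.04, SE 0.0919), and between them, at 0.23, it was not called and turned to −0.01 on log2(FPKM + 1). Below 10 CPM in every group, Fcrl6 was called higher in all 3 comparisons, Fcer2a, Fcamr, Fcmr, Fcrlb, Fcrls and Pigr were called lower in both comparisons over NL, Ms4a2 was called higher in Ly6g-high neutrophils than in either other group and Fcrla was not called.

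Genes with the most similar profile were found by the root mean square difference of log2 CPM, centred per gene, over the 9 libraries, among 7397 genes of at least 10 CPM on average. Within the set of 7, Fcgr2b and Fcer1g were the closest pair, at 0.0703, followed by Fcgr3 and Fcer1g at 0.163, while Fcgr1 and Fcgrt were 0.271 apart and Fcgr3 and Fcgrt 1.92. Closest to Fcgr1 were Trim35 (0.0815), Prdx1 (0.0904) and Fkbp4 (0.101), and closest to Fcgrt were Slc7a8 (0.0733), Akr1b3 (0.0952) and Idh2 (0.109). Fcgr3 was nearest to Emb (0.0462), Ypel5 (0.0472) and Myadm (0.0486), and Fcgr4 to Wipi2 (0.0247), Actb (0.0301) and Tfe3 (0.0406). Among these, Actb is the cytoplasmic actin gene. Fcgr2b was nearest to Hsd17b11 (0.0353), Ints12 (0.0363) and Cnr2 (0.0391), and Fcer1g to Il4ra (0.0304), Ulk1 (0.0381) and Ctnnbip1 (0.0403). Syk was nearest to Shisa5 (0.0233), Pfkp (0.0322) and Gch1 (0.0384). With 3 groups, such likeness is a description only.

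Markers of other cell types differed between the groups and stand beside all comparisons with NL. The summed CPM of 10 neutrophil markers was 95308 to 97535 for Ly6g-high, 78969 to 80775 for Ly6g-low and 21476 to 21679 in NL libraries, with S100a9 most abundant, and over NL 10 of 10 were called higher in Ly6g-high and 9 in Ly6g-low neutrophils. Between the fractions these markers did not move together. Ltf, Ngp and Camp were at 11444, 17196 and 934 CPM in Ly6g-high and 3052, 5901 and 159 CPM in Ly6g-low libraries. Cxcr2, Csf3r and Retnlg went the other way, from 1716, 3745 and 2341 CPM to 2713, 6928 and 4332 CPM. Markers of other cells were higher in NL libraries for dendritic cells (Cd74 most abundant, 1592 to 1850.3 CPM in NL against 547 to 577 in Ly6g-high and 338 to 358 in Ly6g-low), endothelial cells (Pecam1 most abundant, all 7 called lower in each group over NL), epithelial or tumor cells (Sftpc most abundant, 1105 to 1241 CPM in NL against 104 to 109.7 and 106 to 112), fibroblasts (Col3a1 most abundant, 518 to 549 against 49.8 to 57.4 and 51.7 to 57.7) and erythroid cells (Hba-a2 most abundant in NL, 10.6 to 14.1 against 0.177 to 0.248 and 0.226 to 0.406). For monocytes and macrophages, with Csf1r most abundant in macrometastatic lung and Mrc1 in NL libraries, 1 of 12 was called higher and 7 lower in each group over NL, and between Ly6g-low and Ly6g-high 3 were lower. For alveolar macrophages, with Chil3 most abundant, 10 of 12 were lower in Ly6g-low than in Ly6g-high neutrophils, and over NL 8 were lower in Ly6g-high and 10 in Ly6g-low neutrophils, while Fabp1 and Cidec had at most 3 counts in each Ly6g-low library. NK cell markers (Gzma most abundant) summed to 17.7 to 18.5 CPM in NL, 10.4 to 11.6 in Ly6g-high and 4.65 to 5.27 in Ly6g-low libraries, with Ncr1 and Klrb1c at most at 3 counts in each Ly6g-low library. Basophil and mast cell markers summed to 85.1 to 87.6, 147 to 149 and 249 to 253 CPM in NL, Ly6g-high and Ly6g-low libraries, with the last step carried by Kit, the most abundant, since 1 of these markers was called higher and 4 lower in Ly6g-low than in Ly6g-high neutrophils. Eosinophil markers (Siglecf most abundant) summed to 40.3 to 43.0, 79.1 to 85.2 and 35.7 to 37.4 CPM in the same order, although in Ly6g-low over NL 3 of the 5 were called, all of them higher, and Epx was at no more than 3 counts in each Ly6g-low and NL library. Jchain led the B and plasma cell markers, which were at 99.9 to 107 CPM in NL libraries, and Cd3d the T cell markers. No marker with values was at 0 in all libraries, and what part the other cells have in the changes of the Fc receptor genes was not tested.

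**Figure D5:**
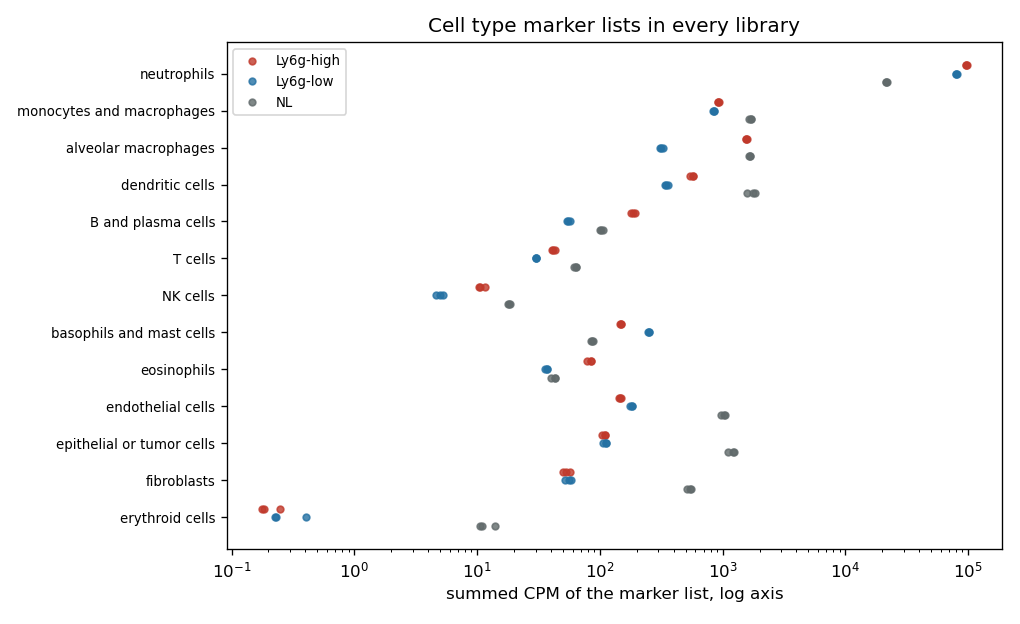
Summed CPM of each marker list (horizontal axis, log scale) in each of the 9 libraries (points, colored by group). NL libraries are lowest for neutrophil markers and highest for monocyte and macrophage, dendritic, endothelial, epithelial, fibroblast and erythroid markers, and Ly6g-low libraries are lowest for alveolar macrophage markers.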

How the data were processed

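RNA of the 9 libraries was poly(A)-selected and sequenced in pairs from strand-specific libraries. The authors deposited estimated counts per gene, not normalized, and not all of them were whole numbers. The authors also deposited FPKM, scaled for transcript length and fragment number. The submitters' processing notes name mm10; aligner and counting program are not given in the sources used here. Genes are listed by NCBI Gene identifier and symbol, and 3739 were blank. Group assignment follows titles and treatment fields; the description of the NL libraries names only a Ly6g-high group. Replicates of a group differed by more than sampling noise, most so NL replicate 2 (chi-square per degree of freedom 5.36 and 4.09 against the other NL libraries, 1.40 to 2.50 for all other pairs), which had the lowest CPM of the NL libraries for Fcer1g, Syk, Fcgr4, Fcgr2b and Fcgrt. Replicate numbers are not said to pair libraries, and whether Ly6g-high and Ly6g-low fractions came from the same mice is not stated.

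Counts were rounded and fitted in R 4.3.3 with edgeR 4.0.16 (filterByExpr, TMM, quasi-likelihood F test, all 9 libraries), with Benjamini-Hochberg adjustment over all 14108 genes. A call needed an adjusted p no higher than 0.05 with a log2 fold change beyond 0.58 in size. The SE is the size of the log2 fold change over the square root of F. The biological coefficient of variation was 0.0346. The code was tested on simulated data. At this depth 3 counts correspond to 0.135 to 0.244 CPM, counting error only.

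Genes were named by rule: the 7 members, every other Fc receptor tested, per comparison the 3 largest rises and falls among called ITAM list genes whose groups did not overlap and whose higher group averaged 10 CPM or more, leading or defining markers, and the 3 genes most alike each member. Fyb, Fgr, Lyn, Fyn, Lck and Blk, and the markers Ltf, Ngp, Camp, Cxcr2, Csf3r and Retnlg, were named after their values were seen. Members and lists were chosen with earlier results of these data known. Alternatives were DESeq2's size factors, upper-quartile scaling, DESeq2 1.42.0, no filter, a minimum of 10 counts throughout, fits to only the 6 libraries compared, a replicate block, limma 3.58.1 on log2 FPKM (pseudocounts 1 and 0.1, and pseudocount 1 after a minimum FPKM of 1 in 3 libraries), other p and fold thresholds, and leaving out each library. Gene positions and promoters are RefSeq's (GRCm38.p6), and coding stretches are from GENCODE vM21 on the same assembly. Shared stretches were counted as distinct words of 50 bases in GENCODE transcripts, on the transcribed strand, compared with every other gene. Siglecf is in both the alveolar macrophage and the eosinophil list, and Cd79a, Cd79b, Ms4a2 and Fcer1a are in a marker list and in the ITAM or other Fc receptor list.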

Additional observations from a re-analysis of the deposited data

How the results depend on the processing

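Of 399 member fold changes recomputed under alternatives, 378 kept their direction and side of the threshold, 15 fell under the threshold, 6 reversed and none crossed it upward. Fcgr1, Fcgr3, Fcer1g and Fcgrt kept direction and call in all 3 comparisons under each of 19 alternatives, and so did Fcgr2b over NL. Their sizes moved, to lowest values of 0.21 for Fcgr3 and 0.09 for Fcer1g in Ly6g-low over Ly6g-high. Lowest values for Fcgr3, Fcer1g and Fcgr2b were 1.02, 0.77 and 0.81 in Ly6g-high over NL, and 1.23, 0.86 and 0.78 in Ly6g-low over NL. In the last comparison Fcgr1 and Fcgrt moved further from 0, to −2.86 and −3.41 at most. The replicate block left the members called at 3, 6 and 7, and leaving out any library did the same. Limma on log2(FPKM + 1), with or without the FPKM minimum, and on log2(FPKM + 0.1) gave, per pseudocount, −0.0369 and −0.0372 for Fcgr2b and 0.36 and 0.37 for Syk in Ly6g-low over Ly6g-high, 0.24 and 0.25 for Fcgr4 and −0.19 and −0.19 for Syk in Ly6g-high over NL, and 0.50 and 0.51 for Fcgr4 and 0.17 and 0.17 for Syk in Ly6g-low over NL. This follows from how FPKM are built, since they follow the count total without TMM: their log2 fold changes differed from those of counts over the total by a median of 0.00191 to 0.0134, within 0.1 for all 7 members. Syk in Ly6g-low over Ly6g-high was 0.578 with no filter. Fcgr4 in Ly6g-high over NL was 0.52 with upper-quartile scaling and 0.54 with a minimum of 10 counts throughout. Why the filters moved these values was not tested. Upper-quartile scaling moved the median of all genes from −0.09 to −0.28 in Ly6g-high over NL and from −0.16 to −0.35 in Ly6g-low over NL. With no fold-change threshold 7 members and 47 ITAM list genes were called in Ly6g-low over Ly6g-high, beside 55.8% of all genes, and with a threshold of 1 these were 1 and 2, beside 9.25%. At the threshold of 0.58 the ITAM list count in that comparison, 13 in edgeR, was 8 on log2(FPKM + 1), with or without the FPKM minimum, and 15 on log2(FPKM + 0.1), all lower. In Ly6g-high over NL a threshold of 1 left 33 ITAM list genes, beside 42.6% of all genes. Reversals of other genes, none of them called with TMM scaling, were on FPKM with pseudocounts of 1 and 0.1 Fcrl1 at −0.0146 and −0.0165 and Trim21 at −0.0708 and −0.0889 in Ly6g-low over Ly6g-high, Fcrl5 at −0.37 and −0.41 in Ly6g-high over NL and B2m at −0.65 and −0.65 in Ly6g-low over NL. With upper-quartile scaling Fcrl5 was −0.15 and B2m −0.14, and with the minimum of 10 counts −0.14 and −0.14, in the same comparisons. Leaving out 1 library took Fcrl5 in Ly6g-high over NL from −0.0745 to 0.18. Depth limits Fcgr1, with 77.0 to 197 counts in libraries of macrometastatic lung, more than the other members, and with edgeR its SE was the largest of the 7 in each comparison.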
